A study of Mus musculus with 13 samples.

Results

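Neurexins, neurexophilins and cerebellins are synaptic organizer genes, and their UMI counts were followed in single neurons of mouse dorsal root ganglia (DRG), sorted by reporters of proprioceptive sensory neurons (pSNs), from e14.5 to the adult. The 8 genes described are the neurexophilins *Nxph1*, *Nxph3* and *Nxph4*, the cerebellins *Cbln1*, *Cbln2* and *Cbln4*, and the neurexins *Nrxn2* and *Nrxn3*. They were chosen by name, with their UMI levels by stage and by adult cluster in these neurons in view, from 50508 listed genes, of which 30658 had a UMI in any well. Their levels in those neurons are therefore given as descriptions, and tests of the members are given only on wells that the study left out. *Nxph2* and *Cbln3* of the same families are given beside them.

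Neurexins are single-pass adhesion molecules of the presynaptic membrane, each made from alternative promoters as a long alpha and a short beta form and then spliced in many ways. Neurexophilins are small secreted glycoproteins that bind the alpha forms tightly. Cerebellins are secreted proteins of the C1q family that bind neurexins carrying a particular splice insert on one side and delta-type glutamate receptors on the other, and so bridge the synaptic cleft. Neuroligins, LRRTMs, latrophilins and dystroglycan are further partners that compete for or share the neurexin surface. pSNs innervate muscle spindles and Golgi tendon organs, and their central axons make synapses in the spinal cord, so that a neurexin they express stands on the presynaptic side of those contacts.

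Adult (at least 56 days old), p12 and p0 neurons came from *PV:Cre+/-;Rx3:Flp+/-;Ai65+/-* mice, in which tdTomato marks neurons that have expressed both parvalbumin and Runx3 at some time. The e14.5 neurons came from *TrkC:tdTomato* embryos, so the first interval, e14.5 to p0, also changes the driver, and stage and driver cannot be told apart there. Viable tdTomato+ neurons (high Calcein Blue, no Sytox red) were sorted 1 to a well into 5 adult, 4 p12, 2 p0 and 2 e14.5 plates, 1248 wells in all, from 6 adult, 4 p12, 6 p0 and 2 e14.5 animals of either sex. Which animal filled which plate is not given in the sources used here, so plates are the replicates and their spread may be partly technical. Digestion times differed by stage.

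The authors kept 586 neurons, 169 at e14.5, 55 at p0, 154 at p12 and 208 in the adult, by gene number and by low *Mbp* and *Apoe*. Another 549 wells with at least 7000 UMIs are called left-out wells, 91 at p0, 216 at p12, 241 in the adult and 1 at e14.5. Their counts and CPM rest on that limit. The edgeR fits of left-out wells instead took the wells not kept that had UMIs of at least 2000 genes, a set that can differ. Mean depth per kept neuron was 11174 UMIs at e14.5, 41594 at p0, 30623 at p12 and 44511 in the adult, and each plate's kept neurons held between 680212 and 2387288 UMIs. All 5 proprioceptor markers (*Pvalb*, *Runx3*, *Ntrk3*, *Etv1* and *Whrn*) were detected in the kept neurons at each stage, summing to 1668 to 1708 CPM per plate at e14.5, 4986 to 5060 at p0, 4076 to 4371 at p12 and 2761 to 3315 in the adult. At e14.5 the 34 neurons of cluster 3 and the 6 of cluster 4 were low in these markers. Sums were 688 to 738 CPM in cluster 3 and 695 in the 5 cluster 4 neurons of replicate 2, against 1727 to 2113 in clusters 1 and 2. *Whrn* was at 0 in clusters 3 and 4 but in cluster 1 as well. The study proposes that e14.5 clusters 3 and 4 may be other TrkC-labelled neurons, Merkel cell afferents among them, and they are part of the e14.5 values below. The 7 satellite and Schwann cell markers summed to at most 851 CPM on any plate of kept neurons, and to between 3707 and 12617 CPM in left-out wells. The same 96 well barcodes were used on all 13 plates.

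Adult replicates 1 and 2 stand apart from replicates 3 to 5. Adult clusters 2 and 4 were found on replicates 1 and 2 alone, and cluster 3 had 1 neuron on replicate 1 and 2 on replicate 2. At p12, clusters 2 and 3 came from replicates 1 and 2 and clusters 1, 4 and 5 from replicates 3 and 4, so cluster and plate pair cannot be told apart at that stage. The clusters are those of the deposited annotation, which names cluster numbers for 166 of the adult neurons and leaves 42 as excluded. The study takes adult cluster 1 as group Ia spindle afferents and cluster 5 as Golgi tendon organ (group Ib) afferents. It proposes, by inference and with *Nxph1* as their common marker, that clusters 2 to 4 may be group II spindle afferents.

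The neurexophilin genes are close copies of one another over the end of their coding sequence, and the stretch of 90 coding bases that follows shows how far their reads can be told apart. In it capitals mark bases that differ from *Nxph1* (GRCm38 with GENCODE vM21 coding sequence, each 5′ to 3′ on its own strand).
Nxph1: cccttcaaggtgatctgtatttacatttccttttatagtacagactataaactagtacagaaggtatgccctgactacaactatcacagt
Nxph2: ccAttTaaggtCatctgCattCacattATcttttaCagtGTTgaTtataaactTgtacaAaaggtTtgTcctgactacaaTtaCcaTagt
Nxph3: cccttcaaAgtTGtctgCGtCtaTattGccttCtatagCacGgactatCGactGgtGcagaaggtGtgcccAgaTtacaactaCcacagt
Nxph4: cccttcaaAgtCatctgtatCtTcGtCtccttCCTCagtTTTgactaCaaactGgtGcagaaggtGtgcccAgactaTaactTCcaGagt
The *Nxph1* stretch is chr6:9247730-9247819 on the plus strand and covers coding bases 700 to 789 of 813. *Nxph2* (chr2:23400307-23400396, plus strand) and *Nxph3* (chr11:95510855-95510944, minus strand) share 71 of the 90 bases with it, 78.9%. *Nxph4* (chr10:127526127-127526216, minus strand) shares 68, 75.6%. Over whole transcripts, none of the 55 pairs of family genes compared shares an identical run of 58 bases, the length of the sequenced read, so a full-length exact read cannot belong to 2 of them.

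In the GRCm38.p6 annotation *Nxph1* spans chr6:8948614-9249619, *Nxph3* chr11:95509845-95514565 and *Nxph4* chr10:127525473-127534559. *Cbln1* lies at chr8:87468853-87472592, *Cbln2* at chr18:86711061-86718283 and *Cbln4* at chr2:172036336-172043466. *Nrxn2* spans chr19:6418756-6533217 and *Nrxn3* chr12:88722701-90334935. The 3 transcription starts listed for *Nrxn3* are at bases 88794504, 88953390 and 89812483 of the plus strand. They lie inside that span and do not include its first base, so the list may be incomplete. UMIs were summed per gene, so alpha and beta forms and splice forms of a neurexin are counted together.

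Of the secreted ligands, *Nxph1* was almost absent at e14.5 and p0 and present at p12 and in the adult. CPM (the UMIs of the gene in a well for every 1000000 UMIs it held, averaged over the kept neurons of a plate) was 0 on both e14.5 plates and 0 and 0.576 on the p0 plates. It was 38.8, 54.6, 50.4 and 43.4 on the 4 p12 plates and 30.4, 35.4, 45.5, 33.0 and 50.6 on the 5 adult plates. The late plates lay far above the early ones, and p12 (46.8 ± 7.05, SD, n = 4 plates) and adult (39.0 ± 8.68, n = 5) overlapped. In UMIs, *Nxph1* had 0 in 169 neurons at e14.5, 1 in 55 at p0, 208 in 154 at p12 and 235 in 208 in the adult. The study counts *Nxph1* among subset markers known earlier from neonatal pSNs. The cause of its low p0 counts here was not tested.

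The count of 0 at e14.5 allows up to 1.78% of neurons with a UMI, or 1.59 CPM (3 counts over the stage). Summed over neurons, the *Nxph1* level at p12 was at least 27.8-fold higher than at e14.5 and 101 times that at p0, with a 95% counting interval of 17.9 to 4004 for the latter ratio because p0 held a single UMI. The adult to p0 ratio was 58.1 (10.3 to 2303). These intervals cover counting error only.

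*Nxph1* was detected in 55.8% of p12 and 51.3% of adult kept neurons (means over plates), and in 22.1% and 21.0% after each neuron was thinned to 7000 UMIs. The fitted log2 difference between adult and p12 was -0.68 ± 0.27 (SE), and -0.09 in thinned neurons. All wells were sorted neurons, so the share that free RNA alone gives was not measured. In the 31 adult wells that were not kept and held fewer than 7000 UMIs, 2 *Nxph1* UMIs were counted in all. These wells entered no comparison of levels.

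*Nxph3* was also near 0 at e14.5 and p0 and higher at p12 and in the adult, with fewer UMIs than *Nxph1*. It was at 0 on both e14.5 plates, at 0.987 and 0 CPM at p0, at 6.19, 3.92, 2.70 and 4.63 at p12 and at 4.04, 7.04, 9.07, 2.81 and 10.7 in the adult. The p12 (4.36 ± 1.46, n = 4) and adult (6.73 ± 3.31, n = 5) ranges overlapped, and both lay above the p0 range. It rested on 0, 1, 15 and 49 UMIs at the 4 stages. The summed adult level was at least 3.33-fold higher than at e14.5 and 12.1 times that at p0 (2.07 to 488).

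*Nxph4* had 4, 1, 1 and 2 UMIs at e14.5, p0, p12 and in the adult, and *Nxph2* had 0 at every stage, so for both a stage difference was not detectable at this depth. The same holds for *Cbln4*, with 4, 0, 4 and 0 UMIs. *Cbln1*, best known as the organizer of parallel fiber synapses in the cerebellum, had 1, 2, 10 and 25 UMIs, its adult level was 2.85 ± 1.39 CPM (n = 5), and neighbouring stages overlapped throughout. *Cbln3* had 0, 0, 1 and 9 UMIs.

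*Cbln2*, the only cerebellin with a substantial count, was present from the first stage. CPM was 291 and 228 at e14.5, 255 and 159 at p0 and 191, 186, 265 and 218 at p12. In the adult it was 354, 242, 80.9, 70.2 and 131. From e14.5 to p12 the plates covered one range, and the adult plates spread most widely, with replicates 1 and 2 above replicates 3 to 5. The stage means were 259 ± 45.1, 207 ± 67.7, 215 ± 36.2 and 176 ± 121 CPM, and every neighbouring pair in their order overlapped.

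The adult value of *Cbln2* depended on which plates were used. Against p12 the log2 difference was -0.67 ± 0.36 over all adult plates, -0.03 with replicates 1 and 2 alone and -1.41 with replicates 3 to 5 alone, alternatives chosen after seeing the data. Cluster 4, where *Cbln2* was highest, had 19 and 9 neurons on replicates 1 and 2 and none on the others.

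**Figure D1:**
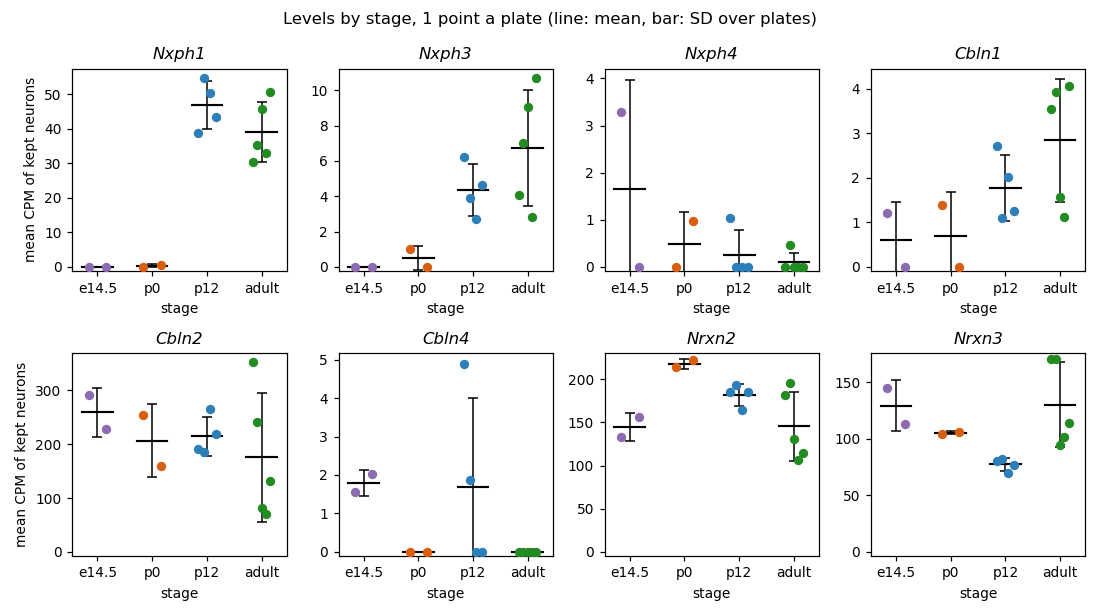
Mean CPM of the 8 genes in kept neurons, by stage (horizontal axis), with 1 point per plate, the mean as a line and the SD over plates as a bar that is clipped near 0. *Nxph1* and *Nxph3* stand at or near 0 at e14.5 and p0 and above it at p12 and in the adult, while *Cbln2*, *Nrxn2* and *Nrxn3* are present at every stage and spread most over the 5 adult plates.

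The presynaptic receptors were present at every stage and covered narrower ranges. *Nrxn2* was at 133 and 156 CPM at e14.5, 214 and 222 at p0, 185, 194, 164 and 185 at p12, and 181, 195, 131, 107 and 114 in the adult. Its order was p0 (218 ± 5.97), p12 (182 ± 12.6), adult (146 ± 40.0) and e14.5 (145 ± 15.7). The p0 plates stood clear of p12, p12 overlapped the adult and the adult overlapped e14.5. The log2 difference of p0 against e14.5 was 0.72 ± 0.24, that of p12 against p0 -0.22 ± 0.20 and that of adult against p12 -0.38 ± 0.16. The last was -0.08 with adult replicates 1 and 2 alone and -0.64 with replicates 3 to 5 alone.

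*Nrxn3* was lowest at p12. CPM was 145 and 113 at e14.5, 104 and 106 at p0 and 80.6, 82.3, 69.9 and 76.8 at p12. In the adult it was 170, 170, 94.4, 102 and 114, so that every adult plate exceeded every p12 plate while overlapping e14.5. The means in order were 130 ± 37.3 in the adult, 129 ± 22.7 at e14.5, 105 ± 1.24 at p0 and 77.4 ± 5.51 at p12. The log2 difference of adult against p12 was 0.66 ± 0.18, 0.99 with adult replicates 1 and 2 alone and 0.37 with replicates 3 to 5 alone.

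Among adult pSN clusters *Cbln2* was high in cluster 4, intermediate in clusters 2, 3 and 5 and low in cluster 1. Mean CPM was 626 ± 122 in cluster 4 (n = 2 plates), 107 ± 46.3 in cluster 2 (n = 2), 87.3 ± 18.9 in cluster 3 (n = 4), 54.7 ± 11.9 in cluster 5 (n = 5) and 7.70 ± 5.07 in cluster 1 (n = 5). Cluster 4 stood above cluster 2, and cluster 5 above cluster 1, on every plate. In between, cluster 2 overlapped cluster 3 and cluster 3 overlapped cluster 5.

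By plate, *Cbln2* in cluster 4 was 712 and 540 CPM, and in cluster 2 it was 74.6 and 140. Cluster 3 gave 60.0, 89.5, 98.6 and 101 CPM on replicates 2 to 5. Cluster 5 gave 56.0, 61.6, 39.4, 46.8 and 69.5, and cluster 1 gave 11.9, 0.649, 6.37, 13.3 and 6.25. Replicate 2, the single plate with 2 or more neurons of each cluster, held the same extremes as the means, with cluster 4 at 540 CPM and cluster 1 at 0.649.

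The log2 difference in *Cbln2* was -2.73 ± 0.35 for cluster 1 against cluster 5, -2.95 ± 0.23 for clusters 1 and 5 against clusters 2 to 4, and 2.46 ± 0.40 for cluster 4 against cluster 2. The clusters were found in the same neurons, so these differences are descriptions. The median neuron had 587 CPM in cluster 4, with a range of 0 to 1966, and 0 in cluster 1, with a highest value of 55.0.

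*Nxph1* separated clusters 2, 3 and 4 from clusters 1 and 5. Cluster 4 had 62.0 and 106 CPM, cluster 3 had 39.1, 69.2, 69.0 and 57.3, and cluster 2 had 53.8 and 37.7. Cluster 1 had 5.71, 9.27, 1.32, 7.38 and 10.5, and cluster 5 had 0, 1.69, 2.42, 2.67 and 5.39. Cluster 3 overlapped both 4 and 2, which did not overlap each other, the 2 lower clusters overlapped, and no plate value of one set reached the other. The log2 difference of clusters 1 and 5 against clusters 2 to 4 was -4.05 ± 0.32. That of cluster 4 against cluster 2 was 0.65 ± 0.48, and -0.07 without replicate 2.

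*Nxph3* was highest in cluster 3, at 49.5, 15.3, 4.53 and 24.4 CPM on replicates 2 to 5, the first from 2 neurons. Cluster 2 had 11.1 and 16.8 CPM, cluster 1 between 1.29 and 10.4, cluster 5 between 0 and 5.81, and cluster 4 had 0 and 4.62. Cluster 2 stood above cluster 1, and all other neighbours overlapped. These levels rest on 19, 7, 17, 4 and 1 UMIs in clusters 3, 2, 1, 5 and 4. Of the low genes, *Cbln1* had 9 UMIs in cluster 5, 7 in cluster 3 and 3 or fewer in each of the others, with all neighbours overlapping, and *Cbln4* had 0 in every cluster.

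*Nrxn3* was at 215 and 218 CPM in cluster 4 and at 135 and 118 in cluster 2. Cluster 5 had 180, 219, 106, 120 and 76.7 CPM, cluster 3 had 96.5, 78.9, 93.6 and 112, and cluster 1 had 114, 72.5, 53.4, 79.7 and 38.2. Cluster 1 was below cluster 5 on each of the 5 plates, although the ranges overlapped between plates. The log2 difference of cluster 1 against cluster 5 was -0.88 ± 0.26. *Nrxn2* was at 209 ± 18 in cluster 4, 171 ± 23.6 in cluster 2, 142 ± 31.1 in cluster 5, 136 ± 42.2 in cluster 3 and 136 ± 38.5 in cluster 1, with overlap between all neighbours but the first pair.

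**Figure D2:**
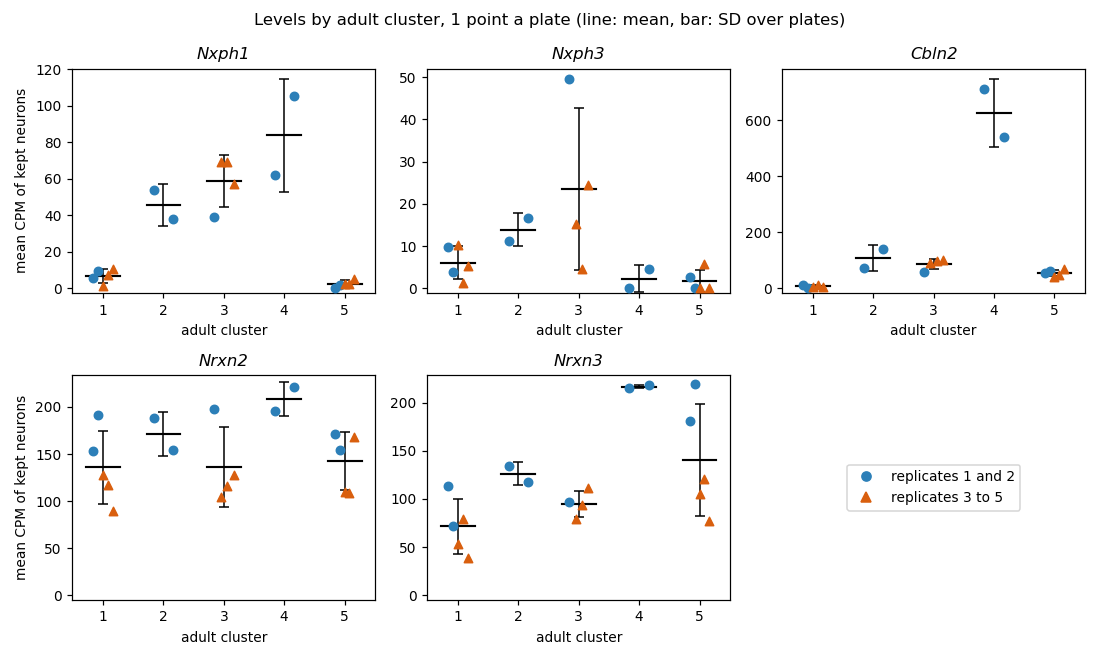
Mean CPM per plate in adult clusters 1 to 5 for the 5 better-counted genes, circles for replicates 1 and 2, triangles for replicates 3 to 5, with the mean as a line and the SD over plates as a bar. *Cbln2* is highest in cluster 4 (712 and 540 CPM) and lowest in cluster 1, *Nxph1* is low in clusters 1 and 5 alike, and in clusters 1 and 5 the circles of *Nrxn3* lie mostly above the triangles.

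At p12 *Cbln2* and *Nxph1* also divided the clusters. *Cbln2* was at 307 ± 74.4 CPM in p12 cluster 1, 283 ± 58.4 in cluster 3 and 208 ± 63.0 in cluster 4 (n = 2 plates each). It had 2 UMIs in the 8 neurons of cluster 2 and 0 in the 8 neurons of cluster 5, although these 2 clusters were deeper (means of 75889 and 49068 UMIs) than cluster 1 (16306). Summed, the level in cluster 1 was at least 38.2-fold higher than in cluster 5 and 88.6 times (24.3 to 735) that in cluster 2.

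*Nxph1* at p12 was 66.7 ± 6.14 CPM in cluster 3, 59.9 ± 0.637 in cluster 4, 40.4 ± 4.60 in cluster 1, 14.4 ± 3.20 in cluster 5 and 2.97 ± 4.20 in cluster 2, with no overlap between neighbours over 2 plates each. Clusters 2 and 5, low in *Cbln2*, were thus also the lowest in *Nxph1*. *Nrxn2* covered 158 to 187 CPM over the 5 p12 cluster means, a narrower range. *Nrxn3* covered 40.9 to 88.1 CPM, with every neighbouring pair overlapping.

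At e14.5 and p0 the ligand *Nxph1* was absent or nearly so in every cluster, and *Cbln2* overlapped between the p0 clusters, at 224 ± 47.4, 182 ± 86.8 and 173 ± 121 CPM. The third of these p0 clusters carried the glial markers, at 3250 and 3293 CPM on its 2 plates, and the part of glial RNA in its levels was not tested. *Nrxn2* at e14.5 was 230 ± 51.6 CPM in cluster 1, 124 ± 4.95 in cluster 2 and 97.8 ± 5.58 in cluster 3, without overlap, and 77.5 in the 5 neurons of cluster 4 on replicate 2. In *Nrxn3* the e14.5 clusters covered 107 to 151 CPM.

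Counted neuron by neuron, most neurons of adult clusters 2, 3 and 4 had a UMI of both *Nxph1* and *Cbln2*, and most of clusters 1 and 5 did not. In adult cluster 3, 34 of 41 neurons had a UMI of both, 3 of *Cbln2* alone and 0 of *Nxph1* alone, and in cluster 2 the counts were 11, 2 and 0 of 15. In cluster 4 they were 20, 7 and 0 of 28. In cluster 5, 22 of 31 neurons had *Cbln2* alone, 4 had both and 0 had *Nxph1* alone, and in cluster 1, 27 of 51 had neither, 12 had *Cbln2* alone, 8 *Nxph1* alone and 4 both. Of the 5 clusters, cluster 1 was the deepest (mean 61460 UMIs) and cluster 4 the shallowest (21432).

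At 7000 UMIs per neuron the joint counts fell in each cluster. Both genes were then found in 11 of 41 neurons of cluster 3, 4 of 15 of cluster 2 and 10 of 28 of cluster 4. *Cbln2* alone was found in 12, 3 and 16 neurons of these clusters. In cluster 5, 8 of 31 had *Cbln2* alone and 0 had *Nxph1*, and in cluster 1, 49 of 51 had neither. Over all 208 adult neurons, 32 then had both, 62 *Cbln2* alone, 8 *Nxph1* alone and 106 neither. At p12 both genes were found, at full depth, in 27 of 63 neurons of cluster 1, 12 of 17 of cluster 3 and 40 of 58 of cluster 4. In p12 cluster 5, 4 of 8 neurons had *Nxph1* alone and none had *Cbln2*.

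**Figure D3:**
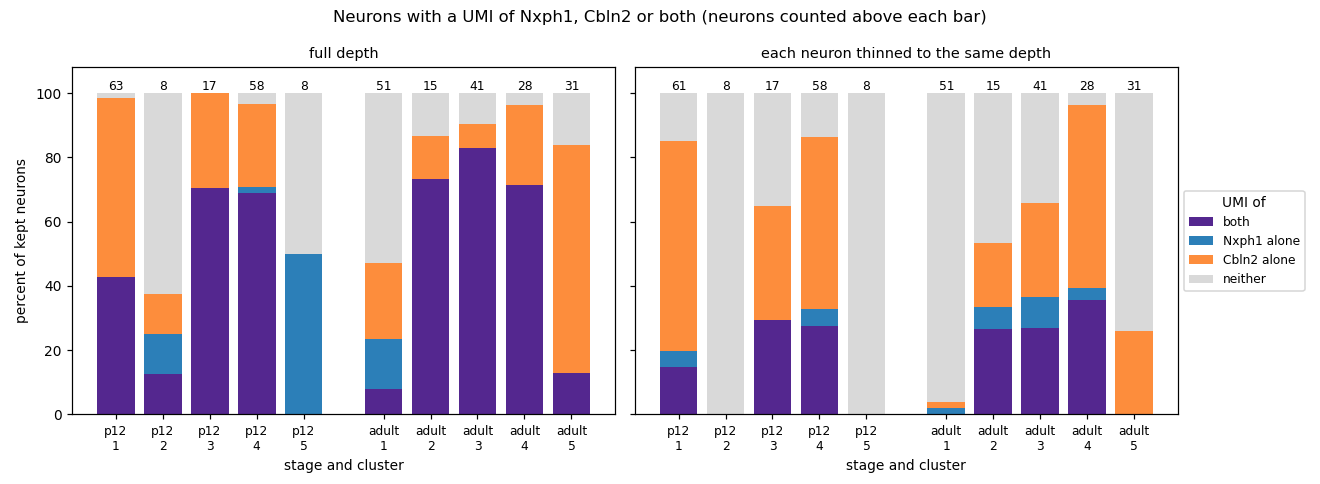
Percent of kept neurons with a UMI of *Nxph1*, *Cbln2*, both or neither, by p12 and adult cluster, at full depth (left) and with each neuron thinned to 7000 UMIs (right), with the number of neurons above each bar. Adult clusters 2, 3 and 4 are dominated by neurons with both at full depth, cluster 5 by *Cbln2* alone and cluster 1 by neither. Thinning shrinks the joint share in each of the clusters that had one.

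The left-out wells gave a test of the stage differences in wells that did not choose the genes, although they come from the same plates, and possibly the same animals, as the kept neurons. In these wells the 7 glial markers summed to 3707 to 4249 CPM per plate at p0 and 6840 to 9277 at p12, and their part in the stage differences was not tested. *Nxph1* was at 0.949 and 0.612 CPM at p0, from 3 UMIs in 91 wells. At p12 it was at 67.1, 54.5, 44.0 and 55.4 CPM and in the adult at 68.1, 78.1, 52.2, 51.1 and 37.3. Summed, p12 was 61.1 times p0 (20.8 to 297), and *Nxph1* was called higher at p12 by edgeR's quasi-likelihood test (adjusted p = 3.24e-06) and in each of the 17 alternatives. The fit called 18.4% of 12003 genes for p12 against p0. *Nxph1* was chosen with its rise in view on these same plates, so its call is not independent of that choice.

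*Nxph3* rose as well in the left-out wells, from 0 and 0.434 CPM at p0 (1 UMI) to 2.86, 5.89, 2.61 and 1.58 at p12. The ratio was 11.6 (1.95 to 473) with edgeR's adjusted p = 0.0182. The call was lost with DESeq2 (adjusted p = 0.102) and without p0 replicate 1 (adjusted p = 0.18). *Cbln2* (log2 difference 0.52 ± 0.40), *Nrxn2* (-0.28 ± 0.20) and *Nrxn3* (-0.47 ± 0.20) did not pass the test, with edgeR adjusted p of 0.408, 0.377 and 0.113. With 3 and 1 UMIs at p0, *Nxph1* and *Nxph3* passed the filter on low counts through their later levels. *Nxph4*, *Cbln1* and *Cbln4* did not pass it. The call of *Nxph3*, too, is not independent of the choice of genes, made with its rise in view on these plates.

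Between p12 and adult the left-out wells called 10.4% of genes. *Nrxn3* was at 85.2, 106, 67.7 and 71.7 CPM at p12 and at 150, 157, 104, 106 and 99.1 in the adult, and it was the single member called, at a log2 difference of 0.57 ± 0.16 (edgeR adjusted p = 0.035). The direction was kept in all 17 alternatives (0.40 to 0.77) and the call in 6 of them, the highest adjusted p being 0.126, with adult replicates 3 to 5 alone. It was lost without any 1 of adult replicates 1 to 4, p0 replicates 1 and 2 or p12 replicates 1, 3 and 4 (adjusted p between 0.0515 and 0.105), and without the filter on low counts (0.116). *Nxph1* (-0.16 ± 0.18, adjusted p = 0.615), *Nxph3* (1.04 ± 0.39, 0.108) and *Nrxn2* (-0.09 ± 0.16, 0.768) did not pass. *Cbln2* (-0.47 ± 0.31, 0.357) did not either. With adult replicates 3 to 5 alone it was called lower, at -1.14 (adjusted p = 0.00474), and with replicates 1 and 2 alone it turned to 0.19 (0.583).

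On the same plate, kept neurons held less *Cbln2* than left-out wells. In the adult, kept neurons and left-out wells had 354 and 375 CPM on replicate 1, 242 and 421 on replicate 2, 80.9 and 141 on replicate 3, 70.2 and 162 on replicate 4, and 131 and 125 on replicate 5. Kept neurons were lower on 4 of 5 plates. The kept neurons' values had been in view when the genes were chosen, so these differences are descriptions. With the plate as a block the log2 difference was -0.74 ± 0.15, and for *Nxph1* it was -0.77 ± 0.19.

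At p12 *Cbln2* was again lower in kept neurons, at 191, 186, 265 and 218 CPM against 286, 308, 261 and 290 in left-out wells, lower on 3 of 4 plates. The log2 difference was -0.48 ± 0.11 for *Cbln2* and -0.31 ± 0.17 for *Nxph1*.

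Left-out wells differ from kept neurons in the glial markers used to set them aside, 7496 to 12617 CPM against 308 to 851 in the adult and 6840 to 9277 against 214 to 602 at p12. They also carried more of the 6 markers of other DRG neurons, 46.9 to 317 CPM against 6.55 to 21.0 in the adult. *Pvalb*, *Runx3*, *Ntrk3*, *Etv1* and *Whrn* summed to 2430 to 3036 CPM in the adult left-out wells, and their clusters were not assigned. The part of glial RNA, of other neurons and of cluster makeup in the differences was not tested.

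**Figure D4:**
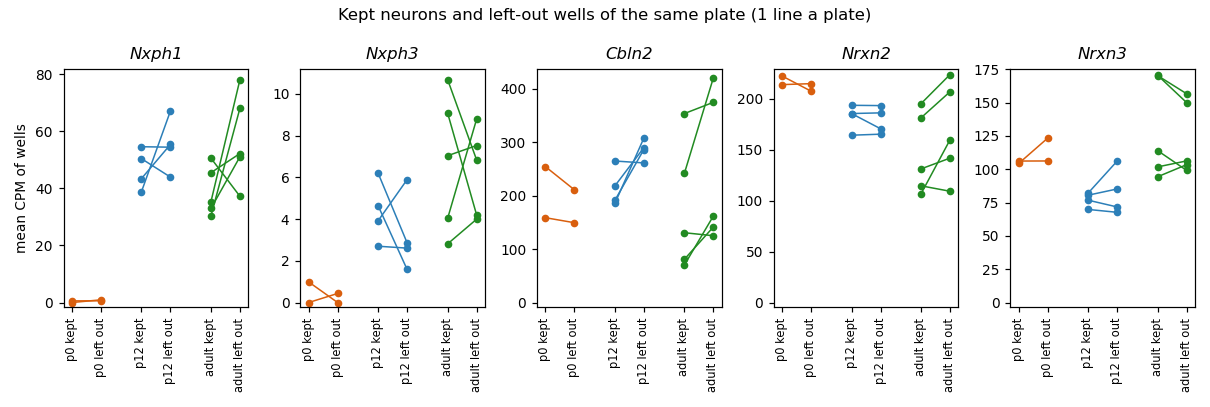
Mean CPM in kept neurons and in left-out wells of the same plate (1 line per plate) at p0, p12 and in the adult, for the 5 better-counted genes. *Nxph1* is near 0 at p0 in both kinds of well, and the lines of *Cbln2* rise from kept to left out on 3 of 4 p12 and 4 of 5 adult plates.

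Within clusters 1 and 5, which all 5 adult plates hold, the plate sets stood apart in neurexins, again as a description of neurons that the choice had in view. *Nrxn3* was higher on replicates 1 and 2 than on replicates 3 to 5 by 0.75 ± 0.19 on the log2 scale, *Nrxn2* by 0.40 ± 0.14 and *Cbln2* by 0.27 ± 0.34. Each plate entered as a sum of each cluster without a plate term, so these SE may be too small. The adult against p12 differences in *Nrxn2* and *Nrxn3* given above include this plate-set difference, and its cause was not tested.

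The genes whose log2 CPM followed each member most closely over the 13 plate sums were *Stxbp6*, *Cyb561* and *Kcnc4* for *Nxph1* (Pearson's r 0.971, 0.970 and 0.967 over 13 sums). For *Cbln2* they were *Rtn4rl1*, *Ppp2r5a* and *Khdrbs2* (0.893, 0.861 and 0.854), for *Nrxn2* *Sulf2*, *Sppl2b* and *Sdccag8* (0.926, 0.912 and 0.893), and for *Nrxn3* *Gga2*, *Pcdh1* and *Dgka* (0.901, 0.884 and 0.879). Over 18 sums of an adult cluster on a plate they were *Pth1r*, *Fgf11* and *Tuba8* for *Nxph1* (0.899, 0.878 and 0.858) and *Tmsb10*, *Serpini1* and *Fdft1* for *Cbln2* (0.930, 0.895 and 0.893). For *Nrxn2* they were *Timmdc1*, *Insig1* and *Abhd2* (0.906, 0.906 and 0.876), and for *Nrxn3* the first 2 were *Nrep* and *Crim1* (0.917 and 0.855). The sums share plates, stages and depth, and the ranking depended on the measure, since Spearman's rho named at most 2 of the same 3 genes in any of the 8 cases.

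The neurexin partners were taken from a list of 33 genes, of which 28 passed the filter between stages. From e14.5 to p0, 9 were called, 4 higher and 5 lower, where edgeR called 27.8% of 11939 genes, and the list's median log2 difference was 0.12 against 0.01 for all genes. Higher at p0 were *Lin7b*, a scaffold that joins CASK at the neurexin tail (12.1 and 14.4 CPM at e14.5, 130 and 114 at p0, log2 difference 3.27 ± 0.41, adjusted p = 8.51e-05), and *Igsf21*, a neurexin-binding immunoglobulin protein (22.2 and 11.3, then 149 and 103, 2.86 ± 0.39, 0.000162). *Cask* itself, the scaffold kinase that binds the neurexin tail, fell from 449 and 421 CPM to 89.4 and 83.8 (-2.30 ± 0.44, adjusted p = 0.00198). These 3 were called in each of 21 alternatives.

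The calsyntenin *Clstn3*, a postsynaptic adhesion protein, rose at p0 from 19.2 and 14.2 to 73.6 and 62.3 CPM (1.98 ± 0.28, adjusted p = 0.000247), a call lost only in thinned neurons (0.0913). *Dag1*, the gene of dystroglycan, also rose (0.93 ± 0.31, adjusted p = 0.0343, called in 13 of 21 alternatives). The 7 glial markers moved beside these genes, from sums of 11.3 to 22.6 CPM in kept neurons at e14.5 to 515 to 635 at p0, and their part was not tested. The other calls were of lower genes, the secreted neurexin ligand *Fam19a4* (-1.69 ± 0.39, 0.006), the neuroligin *Nlgn3* (-1.02 ± 0.32, 0.0304), the neuroligin antagonist *Mdga1* (-0.76 ± 0.24, 0.0297) and the carbonic anhydrase-related *Car11* (-0.85 ± 0.30, 0.0459). The calls of *Dag1* and of these 4 were lost without either p0 plate, and all but that of *Fam19a4* also without either e14.5 plate, with adjusted p up to 0.263 for *Car11*. In thinned neurons the *Car11* difference was -0.31 (0.704) and that of *Dag1* 0.64 (0.415). The *Car11* call was lost in 13 of 21 alternatives, among them the omission of adult replicates 1, 2, 3 or 4 and of p12 replicates 2 or 3.

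From p0 to p12, 6 of 28 were called, 1 higher and 5 lower (18.1% of all genes were called), with a list median of -0.03 against 0.02. *Fam19a4* fell from 24.5 and 27.3 CPM to between 1.26 and 6.0 (-2.61 ± 0.43, adjusted p = 0.000768) and *Mdga1* from 149 and 148 to between 58.4 and 79.2 (-1.01 ± 0.21, 0.00373), both in each of 21 alternatives. *Adgrl3*, a latrophilin, fell (-0.90 ± 0.24, 0.0187), as did *Lrrtm2* (-1.94 ± 0.59, 0.0332) and *Nlgn3* (-0.92 ± 0.29, 0.0407), and *Lrrtm3*, another leucine-rich postsynaptic partner, rose (1.36 ± 0.42, 0.0368). The call of each of these 4 was lost without p0 replicate 2 and without 1 or more of p12 replicates 1, 2 and 3. The calls of *Adgrl3*, *Lrrtm3* and *Nlgn3* were also lost without p0 replicate 1, and that of *Nlgn3* without e14.5 replicates 1 or 2 or adult replicates 1 or 3. In thinned neurons *Nlgn3* had a difference of 0.08 (adjusted p = 0.935) and *Lrrtm3* one of 0.65 (0.557). *Lrrtm2* was tested in only 10 of the 21 alternatives, and its call was also lost with DESeq2 (adjusted p = 0.0531).

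From p12 to adult, 4 of 28 were called, 2 in each direction (14.1% of all genes), with a list median of -0.14 against 0.04. *Nlgn3* fell from 25.2, 35.2, 21.0 and 32.8 CPM to 9.05, 11.1, 6.0, 3.08 and 1.92 (-2.26 ± 0.28, adjusted p = 0.000204, called in each of 21 alternatives). *Nlgn2*, a neuroligin of inhibitory synapses, rose (0.71 ± 0.19, 0.0212), as did the neurexin tail adaptor *Apba2* (0.79 ± 0.21, 0.0231), and *Mdga1* fell (-0.61 ± 0.17, 0.0288). All 3 of these calls were lost without adult replicate 2 and without p12 replicate 3, in thinned neurons and with adult replicates 3 to 5 alone, with adjusted p up to 0.554 for *Nlgn2*. Those of *Apba2* and *Mdga1* were also lost without adult replicate 1 or p12 replicate 4, and that of *Mdga1* without adult replicate 4. *Grid1*, which encodes a delta-type glutamate receptor that cerebellins bind, was measured at 2.00 to 19.6 CPM over the 13 plates and was not called in any stage contrast.

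**Figure D5:**
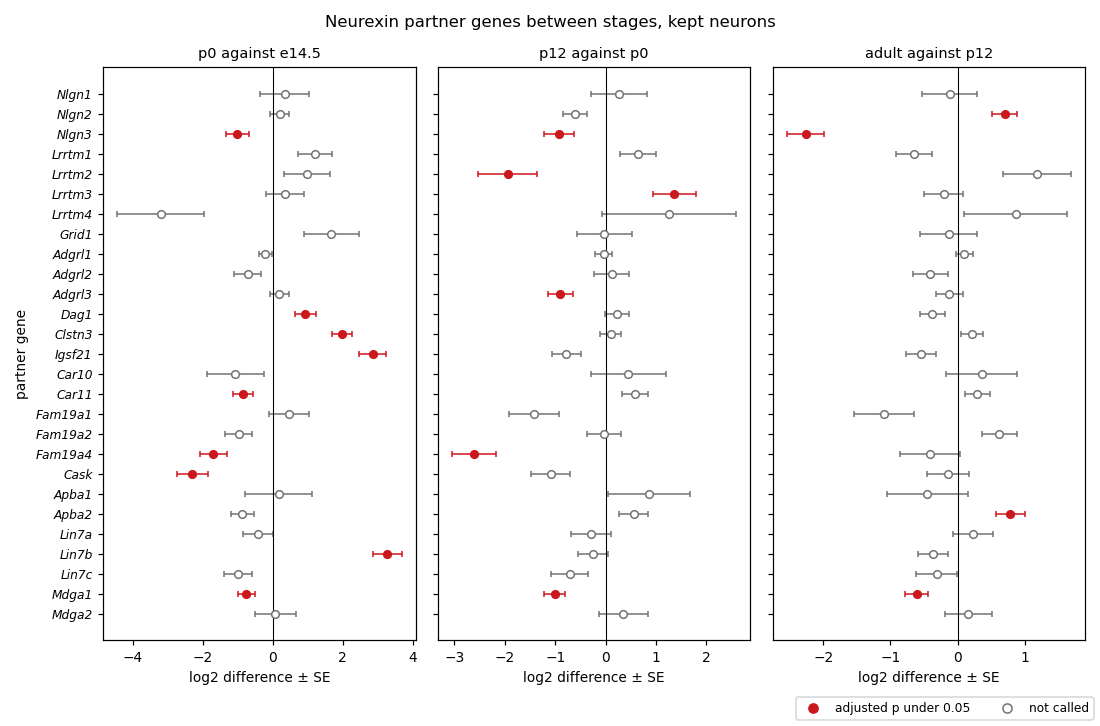
Log2 difference ± SE of tested neurexin partner genes between adjacent stages in kept neurons (edgeR), filled red where the adjusted p is under 0.05. Of the called genes, *Lin7b* and *Igsf21* rise and *Cask* falls most from e14.5 to p0, *Fam19a4* falls most from p0 to p12, and *Nlgn3* falls most from p12 to adult.

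Among adult clusters 20 of the 33 partners passed the filter. The clusters were found from the expression of these same neurons, so the differences below are descriptions and not tests. For cluster 1 against 5, 4 partners were past the threshold used elsewhere, 1 higher and 3 lower (4.76% of 7370 genes were), with a list median of 0.04 against 0.00. *Lrrtm3* was higher in cluster 1, at 37.8 to 62.8 CPM against 15.4 to 32.0 in cluster 5 (log2 difference 1.19 ± 0.25). *Igsf21* was lower, at 10.4 to 54.7 against 40.1 to 131 (-2.07 ± 0.37), with overlap between plates. *Car10*, a carbonic anhydrase-related neurexin ligand (-1.27 ± 0.33), and *Fam19a1* (-1.52 ± 0.41) were lower too.

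For clusters 1 and 5 against clusters 2 to 4, 3 partners were past it, 2 higher and 1 lower (5.63% of genes were), with a list median of 0.01 against 0.03. *Car10* was higher in clusters 1 and 5, at 11 to 40.2 CPM against 0 to 5.62, without overlap (3.32 ± 0.45). *Mdga1* was lower, at 8.65 to 56.5 against 49.7 to 98.0 (-1.53 ± 0.28). *Lrrtm3* was higher (0.93 ± 0.25), but by 0.54 with replicates 1 and 2 alone and by 0.20 with replicates 3 to 5 alone. For cluster 4 against 2 no partner was past the threshold by edgeR or DESeq2, where 0.136% of genes were by edgeR, and 2 of the 20 had an unadjusted p under 0.05.

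In the left-out wells 5 of 28 partners were called for p12 against p0, 17.9% beside 18.4% of all genes, and 3 of 28 for adult against p12, 10.7% beside 10.4%. *Mdga1* (-1.34 ± 0.19, adjusted p = 0.000421) and *Fam19a4* (-2.72 ± 0.68, 0.0141) fell from p0 to p12 there too, *Cask* fell (-1.34 ± 0.29, 0.00629), and *Lrrtm1* (0.95 ± 0.30, 0.0415) and *Lrrtm3* (0.97 ± 0.31, 0.0443) rose. From p12 to adult *Apba2* rose (1.01 ± 0.17, 0.00322) and *Lrrtm1* (-1.09 ± 0.23, 0.00932) and *Nlgn3* (-0.85 ± 0.25, 0.047) fell. The glial markers of these wells differed by stage as well. They summed to 3707 to 4249 CPM per plate at p0, 6840 to 9277 at p12 and 7496 to 12617 in the adult, and their part was not tested. The p12 calls of *Fam19a4*, *Cask*, *Lrrtm1* and *Lrrtm3* were lost without p0 replicate 1, all but that of *Cask* also without p0 replicate 2 or p12 replicate 2, and those of *Lrrtm1* and *Lrrtm3* without p12 replicate 1 or adult replicate 3 (adjusted p up to 0.249). That of *Lrrtm1* was lost without adult replicate 4 as well, and that of *Lrrtm3* without p12 replicate 3 and with DESeq2 (0.0534). The adult call of *Nlgn3* was lost without any 1 of 9 plates (up to 0.111), and with adult replicates 1 and 2 alone the difference was -0.34 (0.392).

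Between kept neurons and left-out wells 7 of 25 partners were called in the adult, where 14.7% of 10262 genes were, and 3 of 25 at p12, where 6.52% of 8743 were. *Dag1* was lower in kept neurons at both stages (-1.65 ± 0.14, adjusted p = 2.1e-08, and -1.55 ± 0.15, 5.22e-08), and so was *Nlgn3* in the adult (-1.73 ± 0.26, 7.22e-05), with these 3 calls made in every alternative. *Lrrtm1* was lower at both stages, *Grid1*, *Adgrl3* and *Fam19a1* were lower and *Adgrl1* higher in the adult, and *Car10* was higher at p12. These 7 calls were lost with DESeq2 (adjusted p of 0.0867 to 0.566) and without the block, and all but that of *Lrrtm1* at p12 without 1 or more plates as well. Between the plate sets within clusters 1 and 5, 4 of 16 were past the threshold beside 23.3% of 6061 genes. The split followed earlier results of these data, and each plate entered as a sum of each cluster without a plate term. These values are therefore descriptions. *Apba1* (2.07 ± 0.23), *Fam19a2* (1.30 ± 0.17) and *Cask* (1.24 ± 0.27) were higher on replicates 1 and 2, and *Lrrtm3* was lower (-0.58 ± 0.20). *Lrrtm3* fell short of the threshold without any 1 of replicates 1 to 4, with DESeq2 and without the filter. The other 3 were past it in all 8 alternatives.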

How the data were processed

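UMI counts per gene and well were used as deposited by the authors, who aligned Plate-seq reads with STAR to mm10 (GRCm38) with the NCBI annotation, assigned wells by barcode and collapsed UMIs. Their annotation gave stage, plate and cluster of the kept neurons. CPM used all UMIs of a well and was averaged per plate, or per plate and cluster where 2 or more neurons were present, before plates were averaged. Sums of UMIs over the kept neurons, and over the left-out wells as defined above for the fits, entered edgeR (version 4.0.16, R 4.3.3). There filterByExpr was followed by TMM factors and glmQLFTest. P-values were adjusted by Benjamini-Hochberg over all tested genes, and a gene was called at adjusted p under 0.05. Alternatives used DESeq2 1.42.0 and limma 3.58.1 was loaded with edgeR. Tables came from pandas 2.3.3 and scipy 1.17.1 under Python 3.11.15 with numpy 2.4.6, figures from matplotlib 3.10.9. Kept and left-out wells were compared with the plate as a block, since both come from that plate. Exact Poisson and binomial 95% limits cover counting error only, and a 0 was read as at most 3 counts.

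Members and lists were chosen with earlier results of these data known. Named are the 8 members, other genes of their families, called genes of the partner list and the 3 genes of highest Pearson's r per member, predicted genes skipped. Results of some genes that this rule would name are not reported here. The fitting steps were tested on simulated counts.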

Additional observations from a re-analysis of the deposited data

Results flagged for a closer look

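Wells that were not kept and held fewer than 7000 UMIs entered no comparison of levels. Members were counted in some of them above the 3 counts that a count of 0 allows. In the 22 such wells at e14.5 *Nrxn3* had 6 UMIs. In the 31 such adult wells *Cbln2* had 6, *Nrxn2* 8 and *Nrxn3* 5. The check for a plate far from the others of its group, run on 43 groups of 4 or 5 plates, found none, where chance gives about 1 in 20.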

How the results depend on the processing

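Settings tried were DESeq2, edgeR with DESeq2 size factors, all genes unfiltered, neurons thinned to equal depth, other cluster and plate choices and leaving out each plate. In thinned neurons, where 19 partners passed the filter between stages, 2 were called for p12 against p0, where *Nlgn3* reversed to 0.082, and 2 for adult against p12. In both cluster contrasts 0 were, but only 4 partners passed the filter there, none of them a partner named for the clusters, so this count says nothing of those at equal depth. For cluster 1 against 5, DESeq2, replicates 1 and 2 alone and replicates 3 to 5 alone each called 2 partners, and for clusters 1 and 5 against 2 to 4 either plate set alone called 1. Members past the threshold are counted next, in left-out wells as tests and in the other contrasts as descriptions. As reported they were 2 and 1 for the left-out stage contrasts, 2 and 1 for kept against left out in the adult and at p12 and 2 between plate sets. DESeq2 gave 1 for p12 against p0 in left-out wells (2031 of 12003 genes, against 2210 by edgeR), 0 for kept against left out in the adult (692 of 10262, against 1512) and 1 between plate sets (1208 of 6061, against 1413). Adult replicates 1 and 2 alone, chosen after seeing the data, gave 1 for p12 against p0 in left-out wells (2357 of 11096). Without the filter 0 were past it for adult against p12 in left-out wells (1938 of 28221) and 1 between plate sets (1466 of 21830). With no replicate block 0 were past it between kept and left-out wells in the adult (491 of 10262) and 0 at p12 (187 of 8743, against 570), and the plate as a replicate block in the cluster contrasts changed no member's direction. Fewer samples or fewer UMIs enter several of these fits, and the cause of the other changes was not tested.

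Leaving out 1 plate, partner calls ranged from 4 to 11 for p0 against e14.5, 2 to 7 for p12 against p0, 1 to 5 for adult against p12, 1 to 4 for cluster 1 against 5, 1 to 3 for clusters 1 and 5 against 2 to 4 and 0 to 0 for cluster 4 against 2. Members past the threshold ranged from 1 to 2 and 0 to 1 for the left-out stage contrasts, 1 to 2 and 0 to 1 for kept against left out in the adult and at p12, and 0 to 2 between plate sets. The number of all genes called moved between the settings as well, so these ranges are not a result about the partners or members alone. Of the single-gene values under an alternative, 1222 kept their side of the threshold or, where there was no test, stayed within their error, 199 lost the call, 62 moved further, 1 gained the call and 9 tested differences changed sign. Besides *Nlgn3* none of these 9 had been called. With adult replicates 1 and 2 alone, the adult against p12 differences in left-out wells turned to 0.11 for *Nxph1*, 0.19 for *Cbln2* and 0.15 for *Nrxn2*, the last ranging from -0.19 to 0.0041 with 1 plate left out. Kept against left out with 1 plate left out, *Nxph3* ranged from -0.39 to 0.027 and *Nrxn3* from -0.016 to 0.11 in the adult, and *Nrxn3* from -0.024 to 0.083 at p12. Another 9 differences with no test changed sign, 4 of them within their error. *Nxph3*, *Nxph4*, *Cbln1* and *Cbln4* are limited by UMI number at every stage.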
